A study of Mus musculus with 12 samples.

Results

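The cell division genes described here encode the proteins that start mitosis, build the spindle, separate the chromosomes and cut a cell apart, and they include Wee1, the kinase that holds the mitotic engine in check. They were taken from a list of 38 names, each matched to array probe sets that carry exactly 1 gene symbol. A match was found for 37 of them, and each of the 37 was 1 of the 24265 genes tested. Ccnb1 was not analysed here. The values come from 12 arrays of mouse megakaryocytes, 6 treated with dexamethasone and 6 with its vehicle.

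Entry into mitosis depends on Cdk1 bound to a cyclin of the A or B type. Wee1 and Pkmyt1 add inhibitory phosphates to Cdk1, and the Cdc25 phosphatases take them off. Megakaryocytes are a special case of the mitotic cell: as they mature they replicate DNA and enter mitosis, but cleavage stops short and the daughter nuclei stay in 1 cell, a process called endomitosis that makes them large and polyploid. The machinery of the early spindle is used in these cycles, and the late steps, which need the central spindle and the contractile ring set up by the GTPase RhoA, are the ones that fail.

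Per the labels' protocols, hematopoietic stem cells from the bone marrow of male C57BL/6 mice were given thrombopoietin at 100 ng/ml for 3 days, moved overnight to medium whose serum (10%) had been stripped with charcoal, and enriched on an albumin gradient on day 4. Every culture was then divided: 1 share received dexamethasone, a synthetic glucocorticoid, at 100 nM and the other its vehicle, and RNA was taken after 6 h. All 12 samples share the strain, the sex, the cytokine and the stripped serum, and neither the number of mice behind a culture nor their age is stated in the labels. The series asks how glucocorticoids act on the megakaryocyte transcriptome. Cultures are numbered 1 to 6 by the replicate number that both arrays of a culture carry. The cultures' own labels, in that order, are 1, 4, 5, 6, 7 and 8, and are not used here. Of 9 tested megakaryocyte markers, all were brighter than the negative controls' median on every array, among them the platelet chemokines Pf4 and Ppbp and the integrin subunit Itgb3. The summed level of the 9 was 20.34 to 20.44 in vehicle and 20.35 to 20.50 in dexamethasone.

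All levels are the authors' deposited values on a log2 scale, which was read from the values themselves, so a difference of 1 is a doubling on the deposited scale. Levels of different genes rest on different probes and are not compared with each other. Array medians lay within 0.10 of each other. The negative control probe sets had a median of 6.15 to 6.39 over the 12 arrays, which serves as a mark of background. By that mark 33 of the 37 genes were above background on every array. Ect2 and Pkmyt1 were below it on all 12 arrays, Cdc25b on 3 vehicle and 5 dexamethasone arrays, and Espl1 on 2 vehicle arrays and 1 dexamethasone array. For these 4 genes a small difference says little about the transcript. The mark is lenient, since the 95th percentile of the negative controls was 9.98 to 10.39 over the arrays. Wee1 in vehicle, and Pttg1, Tpx2, Kif23 and Kif20a in both groups, lay below that percentile on every array. Most of the genes that did not pass the test below also lay under it throughout. Besides Wee1 in dexamethasone, only Cdk1, Ccna2, Ccnb2, Bub3, Kif11, Top2a, Mki67 and Cenpe exceeded it on any array. A level above the mark alone therefore does not show that a transcript is present. The arrays measure a whole culture, so fewer cells that express a gene and less RNA per cell cannot be told apart.

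Wee1 rose 7.30-fold and stood far from the other mitotic genes. Pttg1, which encodes securin, the inhibitor that guards separase until anaphase, rose 1.33-fold. Another 6 genes rose by 1.11- to 1.23-fold: the cyclin Ccnb2, the spindle factor Tpx2, the kinetochore motor Cenpe, the spindle motor Kif11, and the cytokinesis motors Kif23 and Kif20a. None of the 37 fell, and 29 did not pass the threshold. The test was limma's moderated test with culture as a block, 2-sided, with the Benjamini-Hochberg adjustment across the 24265 genes and a threshold of 0.05. Over all genes 12.0% passed in either direction and 7.39% were higher, against 8 of 37 here (21.6%), all higher. The 2 sets differ in signal: 33 of the 37 were above the negative control median on every array, against 11926 of the 24265. With the filter at that median, 3427 of 13050 genes passed, against 10 of 34 here. With the filter at the 50th percentile it was 3351 of 16442, against 9 of 36. Under both filters the 2 shares lay closer together than 21.6% and 12.0%. The genes higher were then 2190 of 13050 and 2131 of 16442, and all of the 10 and 9 were higher. Of all calls among the 24265 genes 61.9% were higher. That share became 44.9% after quantile normalization and 70.3% after centring each array on its median. The median change of the 37 genes was 0.06 on the log2 scale, against -0.01 for all genes tested.

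**Figure D1:**
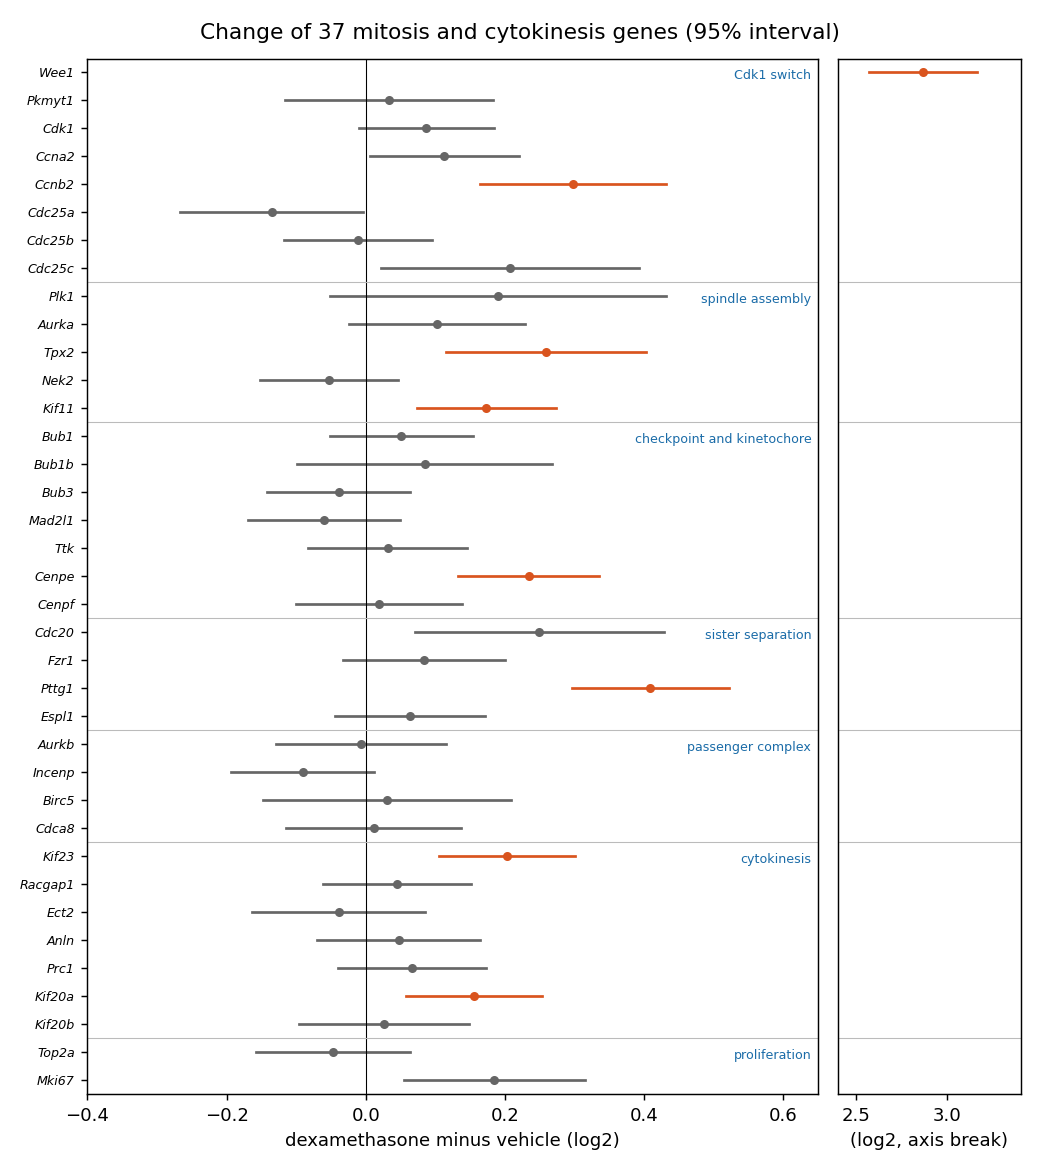
Change of each of the 37 genes in dexamethasone relative to vehicle on the log2 scale (horizontal axis, broken to fit Wee1), as the mean over 6 cultures with its 95% interval, ordered by role. The 8 genes past the threshold are in orange, with Wee1 at 2.87 and the other 7 between 0.15 and 0.41, and the 29 in grey lie between -0.14 and 0.25.

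Wee1 (probe set TC0700001624.mm.1) is the nuclear kinase that phosphorylates Cdk1 and delays mitosis. In vehicle its log2 level was 8.03, 7.90, 8.03, 7.89, 8.11 and 7.92 in cultures 1 to 6. In dexamethasone it was 11.03, 10.96, 11.42, 10.84, 10.40 and 10.41. The lowest dexamethasone array lay more than 2 log2 units above the highest vehicle array, so the groups were far from overlapping. The means were 7.98 ± 0.09 and 10.85 ± 0.39 (SD, n = 6 cultures each), a difference of 2.87 (SE 0.13, 95% interval 2.57 to 3.16, limma adjusted p = 2.62e-06). Among all genes higher in dexamethasone this was the ninth largest rise, and 103 genes passed with a rise of at least 2-fold. The rise was 3.00, 3.06, 3.39, 2.96, 2.29 and 2.50 in cultures 1 to 6. Cultures 5 and 6 thus had the smallest rises. The same cultures held the smallest rises for 40 of the 103 genes that rose at least 2-fold, and they held the lowest differences for 8.46% of all genes tested. The vehicle arrays were tightly grouped and the spread arose in dexamethasone, where the SD was larger.

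Around Wee1 the rest of the Cdk1 switch moved little. Pkmyt1, the membrane-bound relative of Wee1, was under that mark of background on each array and differed by 0.03 (95% interval -0.12 to 0.18). Cdk1 itself was 9.91 ± 0.24 in vehicle and 10.00 ± 0.20 in dexamethasone (SD, n = 6), a difference of 0.09 (95% interval -0.01 to 0.18, limma adjusted p = 0.236). It was higher in all 6 cultures, by 0.01 to 0.15, and the ranges of the groups overlapped almost wholly. Ccna2, the cyclin of S phase and early mitosis, differed by 0.11 (adjusted p = 0.167, higher in 5 of 6 cultures).

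Ccnb2, a B-type cyclin, rose by 0.30 (SE 0.06, 95% interval 0.16 to 0.43, limma adjusted p = 0.0125) and did so in 6 of 6 cultures. Its lowest, median and highest levels were 9.88, 10.13 and 10.96 in vehicle and 10.31, 10.42 and 11.08 in dexamethasone. The groups overlapped, since vehicle cultures 1 and 5 lay above most dexamethasone arrays. The Cdc25 phosphatases that oppose Wee1 did not pass. Cdc25a, which also acts at the start of S phase, differed by -0.14 (95% interval -0.27 to -0.004, adjusted p = 0.175). Its direction was down in 4 cultures and up in 2. Cdc25c differed by 0.21 (95% interval 0.02 to 0.39, adjusted p = 0.144) and was higher in 5 of 6 cultures. Cdc25b differed by -0.01, and by 0.01 after centring on array medians, at a level near background.

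**Figure D2:**
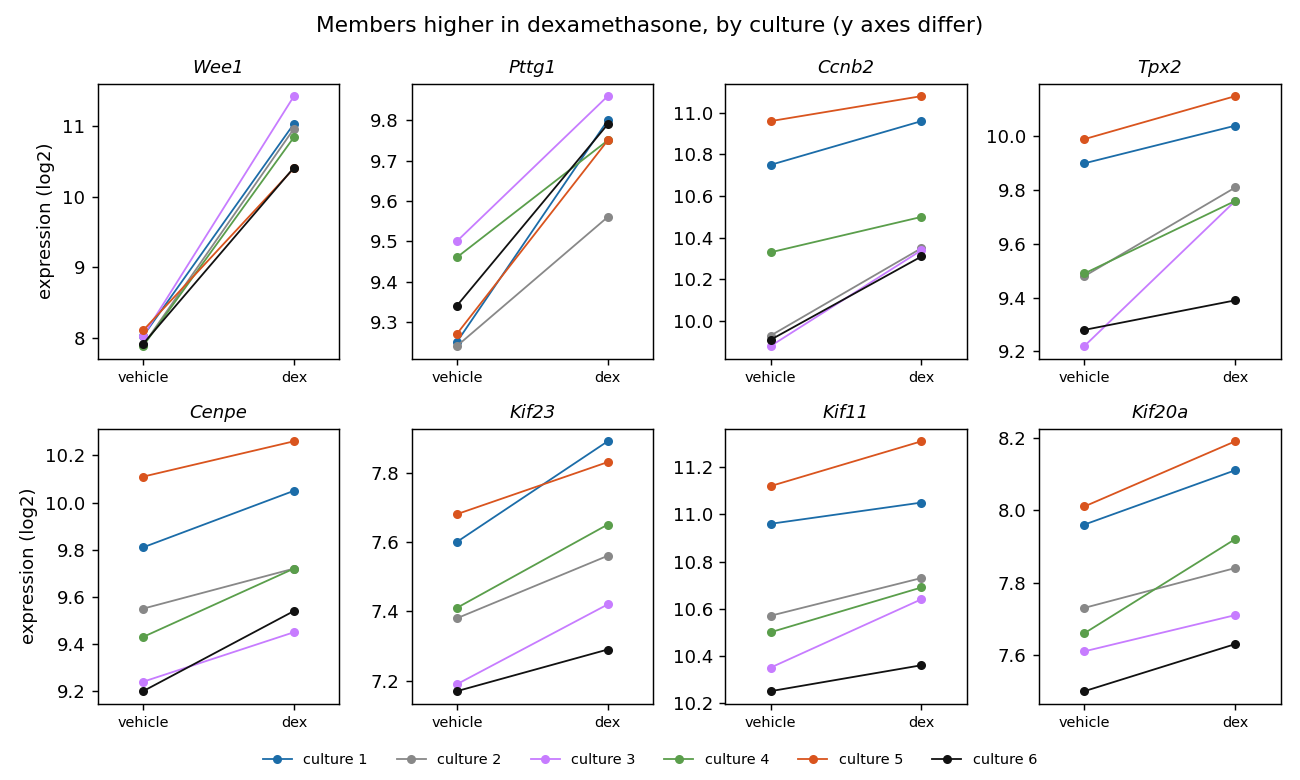
Log2 level of the 8 genes that rose, in the vehicle array (left) and the dexamethasone (dex) array (right) of each culture, joined by a line and coloured by culture; the vertical axes differ. The Wee1 and Pttg1 groups are separate, and in the other 6 panels the lines rise in every culture while cultures 1 and 5 stay on top in both treatments.

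Of the 5 spindle assembly genes, 2 rose. Tpx2, which activates Aurka and nucleates microtubules near chromosomes, rose by 0.26 (SE 0.06, limma adjusted p = 0.0304, 6 of 6 cultures). Its lowest, median and highest levels were 9.22, 9.48 and 9.99 in vehicle and 9.39, 9.79 and 10.15 in dexamethasone, with overlap. Kif11, the motor that pushes spindle poles apart, rose by 0.17 (SE 0.04, adjusted p = 0.0369, 6 of 6 cultures), from 10.25, 10.53 and 11.12 to 10.36, 10.71 and 11.31. The kinases did not pass. Plk1, which drives mitotic entry and cytokinesis, differed by 0.19 (95% interval -0.05 to 0.43, adjusted p = 0.295). It was lower in cultures 1 and 5 and higher in the other 4, from -0.20 to 0.64. Aurka differed by 0.10 (adjusted p = 0.284) and Nek2, a centrosome kinase, by -0.05 (adjusted p = 0.482).

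Among the 7 genes of the spindle checkpoint and the kinetochore, 1 rose. Cenpe, the motor that carries chromosomes to the middle of the spindle, rose by 0.23 (SE 0.04, limma adjusted p = 0.0103, 6 of 6 cultures). Its lowest, median and highest levels were 9.20, 9.49 and 10.11 in vehicle and 9.45, 9.72 and 10.26 in dexamethasone. The checkpoint genes Bub1, Bub1b, Bub3, Mad2l1 and Ttk, which hold anaphase back until all kinetochores are attached, differed by -0.06 to 0.08. Cenpf, a large kinetochore protein, differed by 0.02 (95% interval -0.10 to 0.14). After quantile normalization Bub1, Ttk and Cenpf were slightly lower in dexamethasone, at -0.001, -0.01 and -0.03.

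Sister chromatids part when the anaphase promoting complex, guided by Cdc20 and then Fzr1, destroys securin and frees the protease separase, encoded by Espl1. Pttg1, the securin gene (probe set TC1100002567.mm.1), was 9.25, 9.24, 9.50, 9.46, 9.27 and 9.34 in vehicle cultures 1 to 6. In dexamethasone it was 9.80, 9.56, 9.86, 9.75, 9.75 and 9.79. The lowest dexamethasone array, that of culture 2, lay just above the highest vehicle array, that of culture 3. The means were 9.34 ± 0.11 and 9.75 ± 0.10 (SD, n = 6), a rise of 0.41 (SE 0.05, 95% interval 0.30 to 0.52, limma adjusted p = 0.000945). Wee1 and Pttg1 were the only 2 of the 37 genes whose groups did not overlap, a pattern that 4.1% of all genes tested showed with dexamethasone higher.

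The partners of securin did not pass. Cdc20 differed by 0.25 (95% interval 0.07 to 0.43, limma adjusted p = 0.0779) and changed by -0.12 in culture 1 and was higher in the other 5. It passed without culture 1 (adjusted p = 0.0199) and when only genes above the negative control median were tested (adjusted p = 0.0413). Fzr1 differed by 0.08 (adjusted p = 0.337) and Espl1 by 0.06 (adjusted p = 0.432).

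The chromosomal passenger complex, which corrects wrong attachments and then marks the cleavage site, showed no rise and no fall. Its kinase Aurkb differed by -0.01 (95% interval -0.13 to 0.12), its scaffold Incenp by -0.09 (-0.19 to 0.01), and its targeting subunits Birc5 and Cdca8 by 0.03 (-0.15 to 0.21) and 0.01 (-0.11 to 0.14). After quantile normalization Incenp was lower and past the threshold, at -0.15 (adjusted p = 0.0382), and Birc5 and Cdca8 were at -0.02 and -0.05. After centring on array medians Aurkb was at 0.01.

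Of the 7 genes of cytokinesis, 2 rose. Kif23, the motor subunit of centralspindlin, the complex that recruits the RhoA activator Ect2 to the midzone, rose by 0.20 (SE 0.04, limma adjusted p = 0.0173, 6 of 6 cultures). Its lowest, median and highest levels were 7.17, 7.39 and 7.68 in vehicle and 7.29, 7.61 and 7.89 in dexamethasone. Kif20a, a midzone motor that carries the passenger complex, rose by 0.15 (SE 0.04, adjusted p = 0.0498, 6 of 6 cultures), from 7.50, 7.69 and 8.01 to 7.63, 7.88 and 8.19. Its adjusted p lay at the edge of the threshold. Racgap1, the other centralspindlin subunit, differed by 0.04 (95% interval -0.06 to 0.15).

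Ect2, the RhoA activator whose loss at the midzone has been described in endomitosis, was 5.00 ± 0.10 in vehicle and 4.96 ± 0.05 in dexamethasone (SD, n = 6), below the negative control median on every array. The arrays therefore give no level for it in either group. Prc1, which bundles the central spindle, differed by 0.07, Anln, an anchor of the contractile ring, by 0.05, and Kif20b by 0.03, and none passed; Anln and Kif20b turned to -0.004 and -0.03 after quantile normalization. Top2a, which untangles chromosomes, differed by -0.05 (adjusted p = 0.575), and Mki67, a coat protein of mitotic chromosomes widely used to count cycling cells, by 0.18 (95% interval 0.05 to 0.31, adjusted p = 0.0735) and was higher in all 6 cultures. Mki67 passed under the 2 stricter level filters, at the 50th percentile (adjusted p = 0.0494) and at the negative control median (adjusted p = 0.0383).

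Across the 29 genes that did not pass, 20 differences were above 0 and 9 below. Their 95% intervals ran from -0.27 to 0.43 at the extremes, and all 29 lay within 0.5 log2 units of 0 on both sides. A rise in all 6 cultures was seen for 11 of the 37 genes, against 11.2% of all genes tested. A fall in all 6 was seen for none, against 2018 of the 24265 genes. These shares are not at like signal either. The calls of the 6 small rises rested on comparing arrays within a culture. Without the culture block, 2 of the 37 genes passed, Wee1 and Pttg1, where 6.32% of all genes were higher. The adjusted p was then 7.32e-09 for Wee1 and 0.000581 for Pttg1, and it was 0.408 for Ccnb2, 0.31 for Tpx2, 0.422 for Cenpe, 0.303 for Kif23, 0.569 for Kif11 and 0.423 for Kif20a. With culture as a random effect the count was also 2, where 3159 of 24265 genes passed. The number of the 37 genes that rose was 6 without culture 1, 5 or 6, 5 without culture 2, and 4 without culture 3 or 4. Over all genes 1878 to 2331 of 24265 passed in these fits. Wee1, Pttg1, Ccnb2 and Cenpe passed in each of these 6 fits.

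What these genes shared more than their response was a common rank of the cultures. For 32 of the 36 genes other than Wee1, the vehicle arrays of cultures 1 and 5 were the highest 2 of the 6, a pattern that 17.2% of all genes tested showed. In dexamethasone the same held for 27 of the 36, against 6.79% of all genes. These shares are not at like signal: 32 of the 36 were above the negative control median on every array, against 11926 of all 24265. After quantile normalization the counts were 30 (11.0% of all genes) and 22 (4.56%), and after centring on array medians 33 (26.5%) and 27 (5.61%). Top2a illustrates it, with 11.58, 11.29, 11.00, 11.06, 11.74 and 10.83 in vehicle and 11.58, 11.19, 11.00, 11.16, 11.58 and 10.71 in dexamethasone. Culture 6 was lowest and culture 5 or 1 highest in both treatments. The median deviation of the 36 genes from their own means was 0.19, -0.09, -0.20, -0.14, 0.27 and -0.28 in vehicle cultures 1 to 6, and 0.19, -0.01, -0.10, 0.01, 0.27 and -0.16 in dexamethasone. The rank was not particular to the 36 genes. In the 7 other mitotic lists described below it held for 100 of 156 genes in vehicle (64.1%) and 55 in dexamethasone (35.3%). It held for 24 and 21 of 30 kinetochore and centromere genes and for 19 and 17 of 28 spindle and centrosome genes. Of 24 genes of the RhoA ring and abscission it held for 9 and 3. The 36 genes were not chosen by culture, and their shared rank is a description of these 12 arrays.

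**Figure D3:**
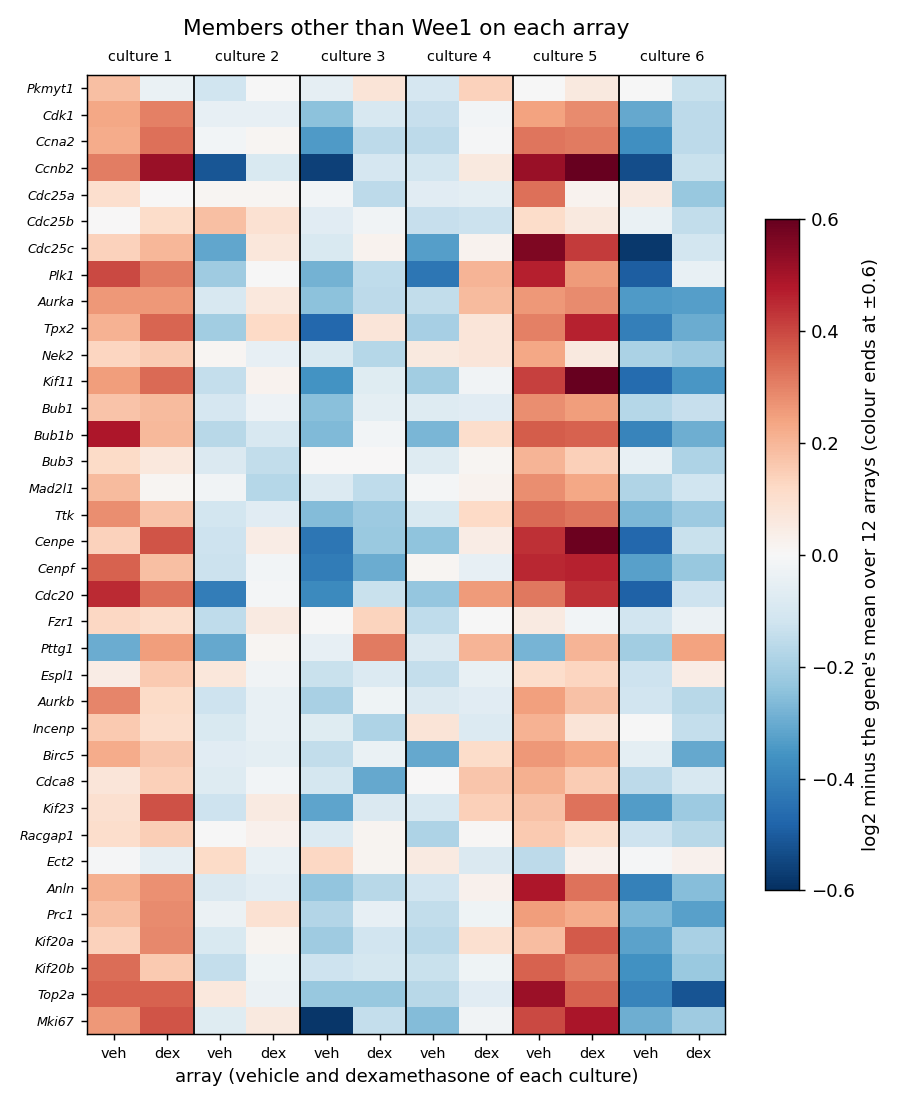
Log2 level of 36 genes (rows, ordered by role, Wee1 left out) on each array (columns, vehicle and dexamethasone of each culture side by side) relative to the gene's mean over 12 arrays; red is above the mean and blue below, and colours end at ±0.6. Most rows are red in both columns of cultures 1 and 5 and blue in culture 6, while Pttg1 alternates with treatment.

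Split into parts, a median of 84.5% of the sum of squares of the 37 genes lay between cultures, 4.66% between treatments and 6.27% in neither. For all genes tested the medians were 44.6%, 12.9% and 32.3%. The share between cultures was over 80% for 23 of the 36 genes other than Wee1 and for 4.76% of all genes. Wee1 and Pttg1 were the reverse: treatment held 96.8% and 81.6% of their sums of squares and culture 1.58% and 14.1%. For 35 of the 36 other genes, Pttg1 being the exception, the change was smaller than 1 SD of the vehicle arrays, which was so for 67.0% of all genes. Ect2 and Pkmyt1, below background, had culture shares of 32.9% and 27.6%.

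**Figure D4:**
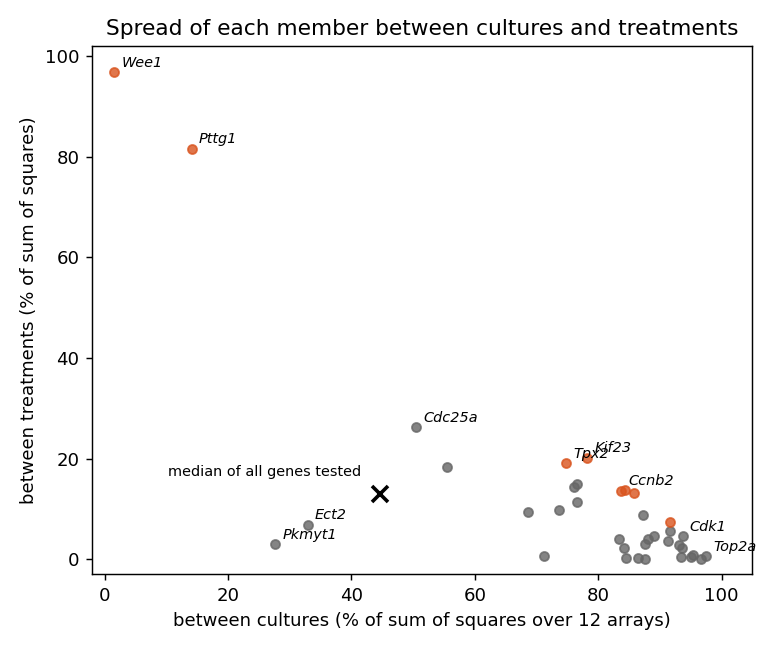
Share of each gene's sum of squares over 12 arrays that lay between cultures (horizontal axis, percent) and between treatments (vertical axis, percent); each point is 1 of 37 genes, orange where it passed the threshold, and the cross is the median of all genes tested. Wee1 and Pttg1 sit at the upper left, and most of the others at the lower right beyond 80% between cultures.

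The treatment difference itself also differed between cultures. The median difference of the 36 genes was 0.02, 0.08, 0.11, 0.16, -0.02 and 0.08 in cultures 1 to 6, and the number of genes higher was 21, 29, 29, 33, 15 and 25 of 36. The cultures with the highest vehicle levels, 1 and 5, thus had the smallest differences. The difference contains the vehicle value with a minus sign, so this order is a description only. Without cultures 1 and 5, 6 of the 37 genes passed: Wee1, Pttg1, Ccnb2, Cenpe, Cdc20 and Cdc25c. Over all genes 2208 of 24265 then passed. Other values of the vehicle arrays moved with cultures 1 and 5 too. The negative control median was 6.331 and 6.315 in vehicle cultures 1 and 5 and 6.153 to 6.261 in the other vehicle arrays. In dexamethasone it was highest in cultures 1 and 2, at 6.393 and 6.358. The upper quartile over all probe sets was 7.43 and 7.44 in vehicle cultures 1 and 5 and 7.32 to 7.40 in the other vehicle arrays. The summed level of 6 stem and progenitor markers was 14.17 and 14.31 in those cultures and 14.01 to 14.09 in the others. The neutrophil sum was 14.55 and 14.16 against 11.81 to 13.99, and the erythroid sum 14.29 and 14.39 against 14.18 to 14.24. The sums of the other 5 marker lists did not have these cultures as the highest pair of vehicle arrays, and the megakaryocyte sum was 20.41 in culture 1 and lowest, at 20.34, in culture 5. The part of any of these in the shared rank was not tested.

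Many genes of this kind share short promoter elements. The cell cycle genes homology region, or CHR, is bound by the MuvB complexes that switch mitotic genes on and off, and the CCAAT box by NF-Y. Promoter windows from RefSeq (build GRCm38.p6), 250 bases before to 50 after an annotated start, were at hand for 29 of the 37 genes, and were searched on both strands for 4 motifs. The letters TTTGAA of the CHR stood in a window of 20 of the 29 genes (69.0%), against 20.2% of 27025 genes. The letters CCAAT stood in 24 (82.8%) against 41.1%, and both in 18 (62.1%) against 8.0%. CACGTG, an E-box, stood in 3, Anln, Espl1 and Ttk (10.3% against 8.1%), and AGAACA, part of the glucocorticoid receptor's site, in 4, Cdc20, Cenpe, Kif23 and Plk1 (13.8% against 21.3%). The CHR and CCAAT letters overlapped each other in 1 gene, Cdca8. A match is a description of the sequence and not evidence of binding. Wee1, Pkmyt1, Ccna2, Cdc25c, Aurkb, Kif20a, Incenp and Tpx2 were not searched.

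**Figure D5:**
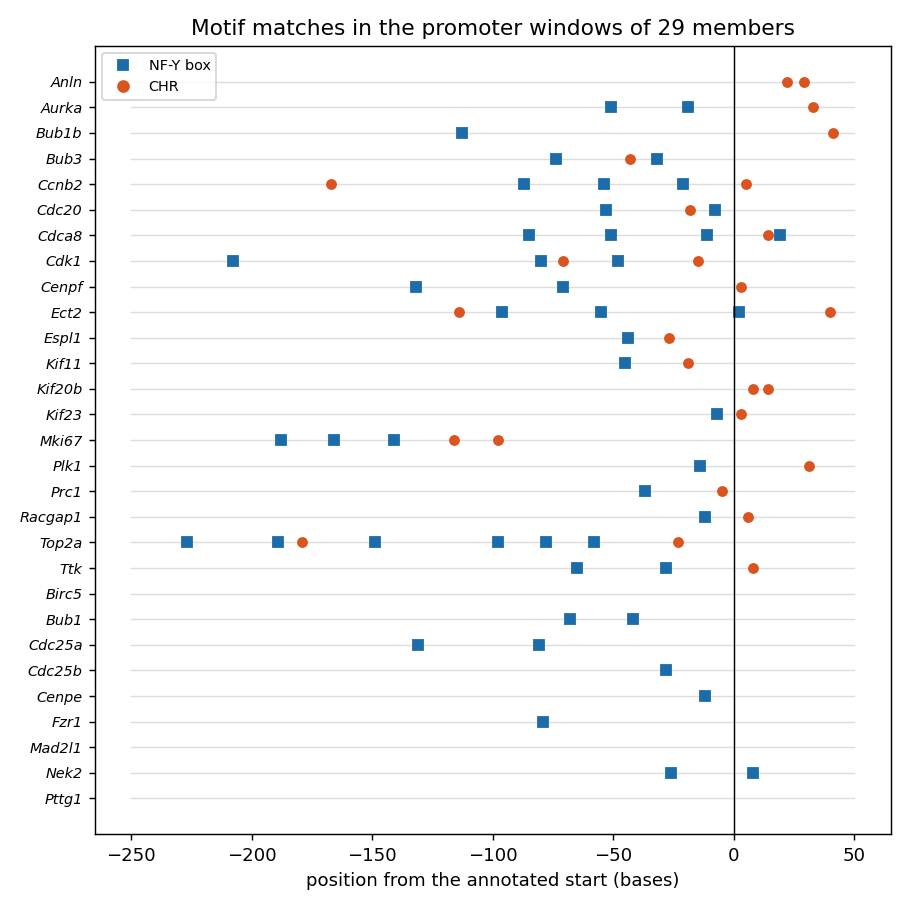
Position of CHR matches (orange circles) and NF-Y boxes (blue squares, the CCAAT letters) in the promoter window of 29 genes, as distance in bases from the first annotated start (black line), with genes that hold a CHR on top. The CHR stands in 20 genes and most matches of both kinds lie within 100 bases of the start; Pttg1, Birc5 and Mad2l1 have neither.

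The stretch from 120 bases before to 20 after the start is printed for 5 genes that follow the shared rank of the cultures, and for Pttg1, which does not. Ccnb2, Kif11 and Kif23 rose, Cdk1 and Top2a did not pass. Capitals mark TTTGAA and CCAAT or their reverse complements TTCAAA and ATTGG, and the sequence runs 5′ to 3′ on the strand of the gene.
Ccnb2, chr9:70421535-70421674, minus strand: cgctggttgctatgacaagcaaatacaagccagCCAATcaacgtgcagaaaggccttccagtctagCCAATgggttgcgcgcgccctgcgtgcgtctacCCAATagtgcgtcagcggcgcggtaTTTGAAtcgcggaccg
Kif11, chr19:37376262-37376401, plus strand: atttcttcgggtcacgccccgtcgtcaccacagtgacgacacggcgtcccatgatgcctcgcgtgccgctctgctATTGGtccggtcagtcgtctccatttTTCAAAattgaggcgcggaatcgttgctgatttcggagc
Kif23, chr9:61946780-61946919, minus strand: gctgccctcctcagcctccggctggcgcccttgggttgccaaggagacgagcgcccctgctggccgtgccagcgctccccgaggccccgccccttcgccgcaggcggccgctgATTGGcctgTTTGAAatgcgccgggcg
Cdk1, chr10:69352893-69353032, minus strand: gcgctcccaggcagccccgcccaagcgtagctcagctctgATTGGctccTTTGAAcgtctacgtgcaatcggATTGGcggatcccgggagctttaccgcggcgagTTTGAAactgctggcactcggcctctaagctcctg
Top2a, chr11:99024170-99024309, minus strand: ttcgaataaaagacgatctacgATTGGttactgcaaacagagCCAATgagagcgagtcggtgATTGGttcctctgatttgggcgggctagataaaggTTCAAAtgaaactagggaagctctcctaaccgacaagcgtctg
Pttg1, chr11:43425962-43426101, minus strand: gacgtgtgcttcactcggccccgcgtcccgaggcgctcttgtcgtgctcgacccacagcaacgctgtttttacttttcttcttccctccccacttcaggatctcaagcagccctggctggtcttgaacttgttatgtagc
Between a CHR and the nearest CCAAT box before it lay 20 bases in Ccnb2, 21 in Kif11, 4 in Kif23, and 30 in Top2a. Cdk1 has 2 CHR matches, 4 and 28 bases behind a CCAAT box. The Pttg1 window holds neither set of letters. Birc5 and Mad2l1 also hold neither, yet their vehicle arrays of cultures 1 and 5 were the highest. Ect2, below background, holds both and did not follow the rank. The part of the motifs in the rank was not tested.

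Beyond the 37 genes, 7 hand-written lists of mitotic genes held 156 tested genes, of which 22 rose and 9 fell (19.9%), against 12.0% called and 7.39% higher over all genes, with a median change of 0.02. Of the 156, 146 were above the negative control median on every array, against 11926 of all 24265, so these shares are not at like signal. Of 21 regulators of Cdk1 and the G2 checkpoint, 2 rose. Gadd45a, a stress protein that can inhibit the Cdk1 and cyclin B complex, went from 9.15 ± 0.16 to 10.83 ± 0.19 (SD, n = 6), a 3.21-fold rise (limma adjusted p = 9.83e-07), and its groups did not overlap. Its relative Gadd45g rose by 0.59 (adjusted p = 0.00787). Of 18 transcription factors of mitotic genes, E2f8 and Lin54 rose, by 0.35 and 0.15, and E2f3 changed by -0.35.

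Of 30 kinetochore and centromere genes, 4 rose and 1 fell. Zwint, which links the outer kinetochore to the checkpoint, went from 13.36 ± 0.04 to 14.38 ± 0.15, a 2.04-fold rise (limma adjusted p = 2.36e-05), and its groups did not overlap. Mis18a and Cenpa, which load and form the histone of the centromere, rose by 0.60 and 0.32, and Knl1 by 0.18. Of 17 genes of the anaphase promoting complex and its enzymes, 3 rose and 2 fell. The subunit Anapc16 rose by 0.72 and the ubiquitin enzymes Ube2s and Ube2c by 0.36 and 0.25, while Anapc1 changed by -0.29. Of 19 condensin and cohesin genes, Smc2 changed by -0.19 and 18 did not pass.

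Of 28 spindle and centrosome genes, 5 rose and 1 fell. Numa1, which anchors microtubules at spindle poles, rose by 0.73 with no overlap of the groups, and Ckap2 by 0.62. Nusap1, a bundling protein of spindle microtubules, rose by 0.39. Ckap2l changed by -0.48. Of 24 genes of the RhoA ring and abscission, 6 rose and 3 fell. Rhob, a RhoA relative, went from 8.58 ± 0.28 to 10.49 ± 0.12, a 3.78-fold rise (limma adjusted p = 1.58e-05). Mylk, a kinase of the myosin light chain, rose by 0.74, the light chain Myl9 by 0.44 and Rhoc by 0.43. Gadd45a, Zwint, Numa1 and Rhob, like Wee1, held little of their sum of squares between cultures, at 2.53%, 1.39%, 2.36% and 1.41%. They were named for large changes, and the shares of a gene add up to its whole, so a small culture share is largely built in. The median culture share was 53.1% for the Cdk1 and G2 list and 70.7% for the kinetochore list. It was 69.0% for the spindle list and 31.9% for the RhoA list.

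A further 4 genes are given because of their known place in endomitosis and were chosen after their values were seen. Rhoa was 15.03 ± 0.06 and 15.03 ± 0.05. Arhgef2, an activator of RhoA, was 7.86 ± 0.11 and 7.97 ± 0.05, a difference of 0.10 (adjusted p = 0.214). Myh10, the non-muscle myosin that is switched off as megakaryocytes become polyploid, lay below the negative control median, at 5.34 ± 0.05 and 5.34 ± 0.06 (SD, n = 6 each). Cdkn1a, the Cdk inhibitor p21, was 17.00 ± 0.10 and 17.10 ± 0.06, a difference of 0.10 (limma adjusted p = 0.155). None of the 4 passed.

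Markers of other cells of the marrow were read beside these results. Over all genes tested 12.0% passed in either direction and 7.39% were higher. The share that passed was 66.67% of the stem and progenitor list, 45.45% of the neutrophil list and 33.33% of the mast cell and basophil list. It was 14.29% of the lymphocyte and of the stromal and endothelial list, 11.11% of the monocyte and macrophage list, and 1 of 5 erythroid markers. The lists are small and not at like signal, and their shares were not tested. Of 11 neutrophil markers, 1 rose and 4 fell, and their summed level was 11.81 to 14.55 in vehicle and 10.54 to 13.87 in dexamethasone, lowest in culture 2 in both. Of 6 stem and progenitor markers 3 rose and 1 fell, with Cd34 and Meis1 the brightest together with Myb, at changes of 0.13 (adjusted p = 0.148), -0.26 and 0.21. Their summed level was 14.01 to 14.31 in vehicle and 13.92 to 14.25 in dexamethasone. Of 7 lymphocyte markers 1 fell, the granule protease Gzmb, by 1.11, and the list's sum was 13.32 to 14.22 in vehicle and 12.35 to 13.08 in dexamethasone, while 4 of the 7 were at background on all arrays. Of 5 erythroid markers 1 fell, the transferrin receptor Tfrc, by 0.65, and the sum was 14.18 to 14.39 in vehicle and 13.36 to 13.78 in dexamethasone. Of 9 monocyte and macrophage markers 1 fell (sums 17.29 to 17.57 and 17.42 to 17.61), and of 7 stromal and endothelial markers 1 fell, with 5 of the 7 at background on all arrays (12.35 to 12.57 and 12.15 to 12.28). Of 6 mast cell and basophil markers 1 rose and 1 fell (9.05 to 9.31 and 9.27 to 9.65). The part of other cells in the changes above was not tested.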

How the data were processed

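RNA of 6 vehicle and 6 dexamethasone samples was measured on 1-colour arrays from 50 ng of RNA, per the labels' protocols. The authors deposited 1 log2 value per probe set and array (72688 probe sets), with the scale read from the values; how they corrected, normalized and summarized them is not stated in the labels or the table. GEO's platform annotation gives 1 symbol for 30604 of them and more for 2146; RefSeq GRCm38.p6 updated 827 symbols. A gene with several probe sets was read from the brightest (mean of 12 arrays), and each of the 37 genes had 1. The level filter asked for 6 or more arrays over the array's 25th percentile and kept 24265 of 30142 genes.

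Treatments were compared with limma 3.58.1 under R 4.3.3 (lmFit and eBayes, culture as a block, 2-sided, adjusted by Benjamini-Hochberg across the genes tested). It was tested on simulated data. The treatment protocol states that cultures were divided, and both arrays of a culture share a number. Deviations of same-numbered arrays correlated at 0.17, 0.23, 0.05, 0.05, 0.25 and 0.19. For the vehicle arrays of cultures 2 and 3, the dexamethasone array that correlated best carried another number. Summed levels of a marker list are log2 of the sum of unlogged values. The genes and lists were chosen with earlier results of these data known. Named genes were all members, up to 4 of the largest changes of each pathway list that passed and moved alike in all 6 cultures, and up to 3 of the brightest of each marker list; exceptions are marked. Alternatives were quantile and median scaling, 3 other level filters, 2 treatments of culture, trended variance, the mean of a gene's probe sets, and each culture left out. The number of arrays limits the precision.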

Additional observations from a re-analysis of the deposited data

Results flagged for a closer look

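Pttg1 in dexamethasone had 1 array apart from the others: culture 2 was at 9.56 and the other 5 arrays at 9.75 to 9.86 (log2). It still lay above the highest vehicle array, at 9.50. The 37 genes gave 111 sets of 6 values (vehicle, dexamethasone and their difference), of which this was the 1 set that Dixon's ratio at the 95% level set apart, and chance alone sets apart about 5% of sets.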

How the results depend on the processing

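Wee1 and Pttg1 passed under all 17 alternatives, Wee1 at 2.76 to 2.98 (adjusted p 2.36e-09 to 9.5e-05) and Pttg1 at 0.35 to 0.43 (adjusted p 0.000174 to 0.0149). Ccnb2 passed in 14 of 17, Cenpe in 13, Kif23 and Tpx2 in 10 each, and Kif11 and Kif20a in 5 each. The number of the 37 genes that rose was 2 without the replicate block and 2 with culture as a random block, where the paired comparison is lost or shared over genes. It was 5 after quantile normalization, with 1 gene (Incenp) lower, 2 with unnamed and control probe sets in the fit, which tests more features, and 4 to 6 when 1 culture was left out. It was 6 with no level filter and 9 of 36 with the filter at the 50th percentile, where Mki67 was added. It was 10 of 34 with the filter at the negative control median, where Mki67 and Cdc20 were added. The calls over everything tested moved too. They were 2518 of 30142 with no filter, 3351 of 16442 at the 50th percentile and 3427 of 13050 at the negative control median. They were 2038 of 72688 with unnamed and control probe sets. Of 24265 genes, 3155 passed after quantile normalization, 2452 without the block and 3159 with a random block. Over all genes 1106 fell; the number was 1738 after quantile normalization, 726 after centring, 639 with unnamed and control probe sets, and 712 to 853 without 1 culture, where 1164 to 1520 rose. In the other mitotic lists 9 fell: 21 after quantile normalization, 5 after centring, 14 with the filter at the 50th percentile, 14 with the filter at the negative control median, 3 with unnamed and control probe sets (where 14 rose), 3 without cultures 1 and 5, and 5 to 8 without 1 culture. Directions near 0 turned. After quantile normalization Bub1 was at -0.001064, Ttk -0.01337, Kif20b -0.0332, Anln -0.003705, Birc5 -0.01677, Cdca8 -0.04503 and Cenpf -0.03184. After centring Cdc25b was at 0.009412 and Aurkb at 0.01401, and without cultures 1 and 5 Aurkb was at 0.05285. With 1 culture left out, Aurkb ran from -0.0408 to 0.02862, Birc5 from -0.04657 to 0.0868, Cdc25b from -0.03614 to 0.008112, Cdca8 from -0.01796 to 0.05487, Cenpf from -0.001126 to 0.05672, Pkmyt1 from -0.007968 to 0.08303 and Ttk from -0.002984 to 0.06147. Where no construction of an alternative is named, the cause was not tested. The fits without cultures 1 and 5 and with unnamed and control probe sets were added after the data were seen. Signal near or below the negative control median limits Ect2, Pkmyt1, Cdc25b and Espl1, and that median is a lenient mark for the other genes.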
